A study of Mus musculus with 2 samples.

Results

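Sterol genes were examined in CD4+ T cells of mouse spleen: 4 enzymes of the last part of cholesterol synthesis (Cyp51, Nsdhl, Sc5d, Dhcr7) and 4 genes of sterol sensing and carriage (Srebf2, Scap, Insig1, Stard4). The genes were chosen by symbol, and all 8 were found among the 24346 gene symbols of both deposited tables. All 8 also passed the filter on low values, a mean of 1 FPKM or more over both libraries, which 10663 symbols passed. FPKM counts sequenced fragments relative to transcript length and library size, so levels can be set beside each other between genes.

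The study sequenced RNA of CD4+ T cells sorted from the spleen at day 14, with 1 library from HFD-MI animals given probucol (an antioxidant drug that lowers cholesterol) and 1 library from untreated HFD-MI animals. HFD-MI is the labels' own term, and the series title speaks of remodelling after myocardial infarction. Both libraries carry HypoE in their column names, which the labels do not explain. No source used here gives genotype, strain, sex, age, dose or the number of animals behind each library.

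Cholesterol is made from lanosterol by a chain of enzymes in the endoplasmic reticulum that remove methyl groups and move or reduce double bonds. The supply is controlled by SREBP2, the product of Srebf2, a transcription factor made as a membrane-bound precursor. When sterol is scarce, the escort protein SCAP carries SREBP2 to the Golgi, where proteases release its active part. When sterol is plentiful, the INSIG proteins hold SCAP and SREBP2 back. Activated T cells need this programme to build membrane for division.

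SREBP2 acts through sterol regulatory elements in promoters, so the promoters of the member at the highest ratio between the libraries (Cyp51) and of the transcription factor gene itself (Srebf2) are shown. Of the members whose windows were searched, which leave out Stard4, only Cyp51 and Srebf2 held the letters ATCACCNCA (N is any base). These letters are a form of the sterol regulatory element with 1 base of any kind. This form was chosen after the sequences were seen. Both stretches are RefSeq sequence of GRCm38.p6, 5′ to 3′ on the strand of the gene, with the matching bases in capitals. The Cyp51 stretch is chr5:4104747-4104907 on the minus strand and ends 50 bases before the RefSeq transcription start. The Srebf2 stretch is chr15:82147059-82147180 on the plus strand and ends 89 bases before it.
Cyp51: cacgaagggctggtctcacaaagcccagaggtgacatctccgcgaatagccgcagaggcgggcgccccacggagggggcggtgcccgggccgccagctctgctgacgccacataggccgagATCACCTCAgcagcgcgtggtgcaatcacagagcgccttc
Srebf2: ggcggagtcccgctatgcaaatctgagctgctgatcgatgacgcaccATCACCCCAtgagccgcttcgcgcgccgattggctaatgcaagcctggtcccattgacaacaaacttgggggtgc

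The match starts 89 bases before the RefSeq start site in Cyp51 and 163 bases before it in Srebf2. In the gene coordinates given below, from the GENCODE annotation, each gene begins directly after its printed stretch, nearer to the match. Promoter windows of 300 bases, 250 before and 50 after a RefSeq start, were searched for 7 of the 8 members, 10 windows in all. Stard4 was not searched. ATCACCNCA, searched on both strands, was in 2 of these windows and in 0.782% of all 32851 windows. Because its form was chosen after the sequences were seen, this is no test of enrichment. The NF-Y box CCAAT was in 6 of the 10 member windows, 1 of each gene except Scap, and in 37.4% of all windows. The GC box GGGCGG was in 9 of the 10 windows, with all 7 genes among them, and in 35.7% of all windows. The E-box CACGTG was in 5 of the 10 windows (Dhcr7, Insig1, Sc5d and both of Scap) and in 7.15% of all windows. Both Scap windows overlap, and their E-box match is the same site counted in each, as is a GC box match. Windows are thus not independent, and none of these shares is a test of enrichment. The member windows were between 48.7% and 71.7% G and C, against a median of 52.7% over all windows. Only a Dhcr7 window, at 48.7%, lay below that median, and all others were at 58.3% or more. The shares over all windows were not matched for G and C content. A match is a description of letters and no evidence of binding.

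In these T cells Srebf2 was the most abundant of the 8 transcripts and Cyp51 the scarcest, in both libraries. Srebf2 stood at 36.7 FPKM with probucol against 42.5 FPKM without it. Sc5d followed at 31.2 and 28.0 FPKM, and Scap at 21.2 and 22.4 FPKM. Counting intervals (95%, exact, from estimated fragment numbers) separated each of these 3 genes from its neighbour in the order, in both libraries. All intervals of levels rest on the transcript length used. With the median length of all annotated transcripts, untreated fragments would be about 53 in place of 901 for Scap. For Sc5d they would be about 411 in place of 1283. Intervals would then be wider, and the order was not checked with those lengths. Dhcr7, Nsdhl, Insig1 and Stard4 lay between 7.98 and 12.3 FPKM, and each overlapped in its interval with its neighbour in the order, in both libraries. In the untreated library Dhcr7 nevertheless lay apart from Insig1 and Stard4, and Nsdhl from Stard4. Cyp51 was at 6.97 FPKM with probucol against 5.30 FPKM without it, its interval apart from that of the next gene in the untreated library and overlapping it with probucol. Among all genes compared, mean levels ran from percentile 29.1 for Cyp51 to percentile 73.8 for Srebf2.

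**Figure D1:**
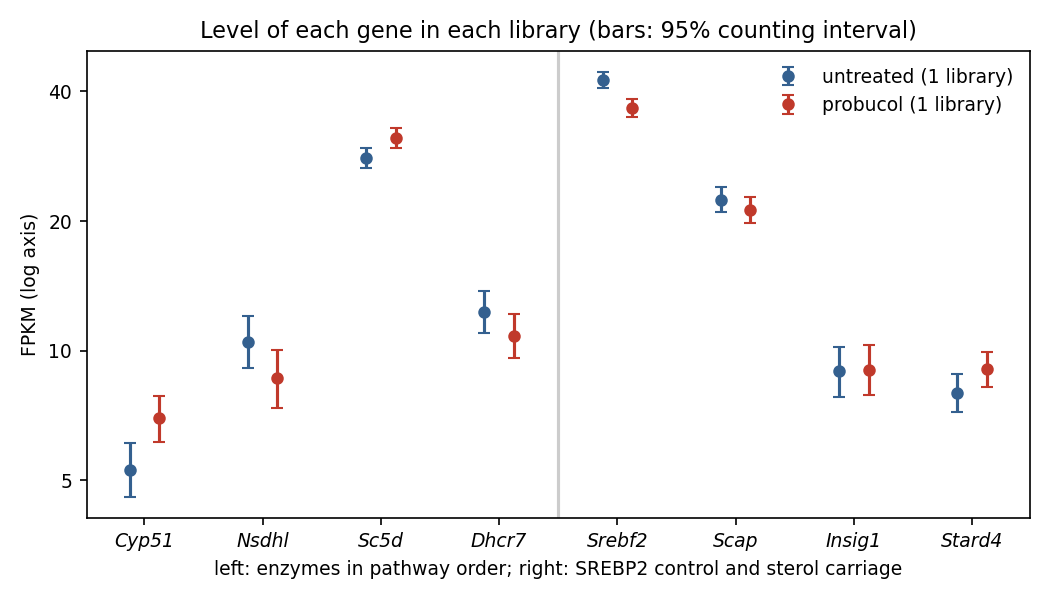
FPKM (log axis) of the 8 genes in the untreated (blue) and probucol (red) library, 1 library each, with bars for the 95% counting interval. Srebf2, Sc5d and Scap sit above 20 FPKM in both libraries, and the intervals of the libraries lie apart for Cyp51, Srebf2 and Sc5d.

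The design asks how splenic CD4+ T cells of HFD-MI animals differ when probucol is given. The 8 genes were close between the libraries, 4 slightly higher and 4 slightly lower with probucol (3 and 5 once ratios are centred on the median gene, where Insig1 changes side). None of the 8 was at least 2-fold higher or lower on the log2 ratio of FPKM + 1, against 1.62% of all 10663 genes higher and 1.98% lower (3.60% in all). None was past 1.5-fold either, against 5.99% of all genes higher and 5.53% lower (11.5% in all). Each of the 8 had a mean of 5 FPKM or more. Of the 8042 genes at that level, 4.04% were past 1.5-fold higher and 3.38% lower, and 1.03% and 1.19% past 2-fold. With shares this small, none of 8 is not a trait particular to these genes. Their log2 ratios ran from -0.25 (Nsdhl) to 0.34 (Cyp51) with a median of -0.03. Over all genes compared, 5617 were higher and 5046 lower, with a median of 0.02. The summed FPKM of the 8 was 134 with probucol and 138 untreated. Each group is a single library, so no p-value was computed, and all intervals cover no more than counting error.

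Genes of other cell types and library-wide measures also differed. The summed FPKM of 10 B cell markers was 62.4 with probucol and 22.7 untreated, with 6 of 6 measured genes higher and Pax5 at 0 in both. That of 10 erythroid markers was 359 and 1179, with 9 of 9 lower, and that of 7 natural killer markers was 7.78 and 18.0, with 4 of 5 lower and Klra8 at 0 in both. The natural killer marker Ncr1, below the filter, went the other way, at 1.04 and 0.0795 FPKM (about 13 and 1 fragments). Macrophage markers summed to 190 and 180 FPKM, with 7 of 9 higher, and neutrophil markers to 1061 and 946 FPKM, with 7 of 8 higher and 2 of these past 2-fold. CD8 markers summed to 16.1 and 19.9 FPKM, nearly all from Cd8b1 (15.9 and 19.6 FPKM), while Cd8a was at 0.139 and 0.276 FPKM. Dendritic cell markers summed to 2.85 and 3.48 FPKM, with Clec9a, Itgax and Batf3 at 0 untreated. The 7 CD4+ T cell markers summed to 4187 and 4227 FPKM, Cd4 itself standing at 334 and 284 FPKM and Cd3e at 478 and 494 FPKM. With probucol 14289 symbols were above 0, against 16876 untreated, at an estimated 1.04e+07 fragments in each library. The part of these differences in the values of the sterol genes was not tested, and in bulk RNA fewer cells of a type cannot be told apart from less RNA per cell.

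**Figure D2:**
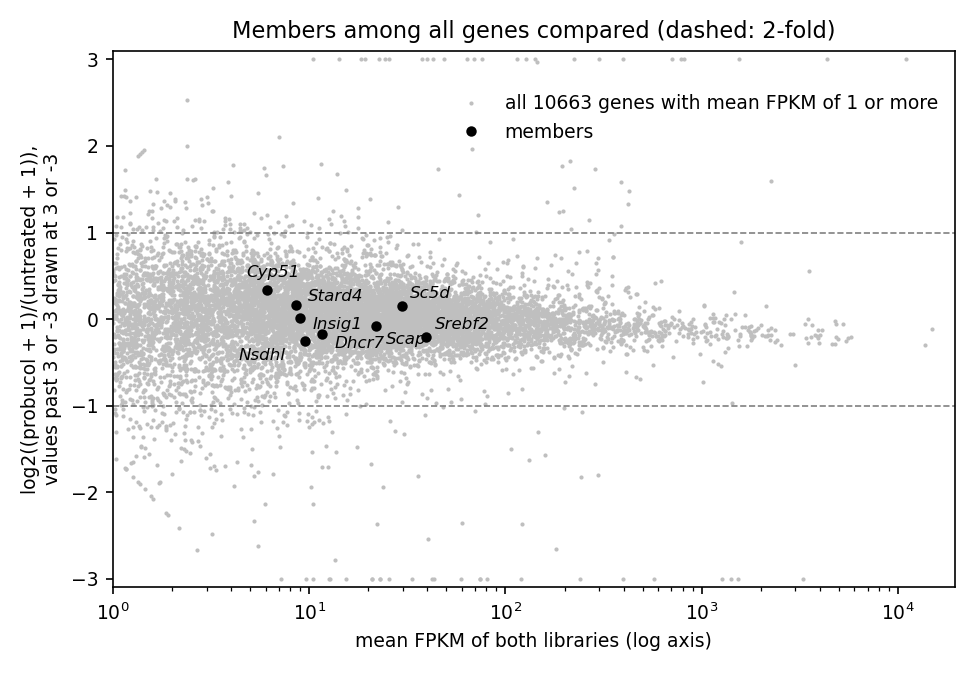
Log2 ratio on FPKM + 1 against mean FPKM (log axis) for all 10663 genes compared (grey) and the 8 sterol genes (black), with dashed lines at 2-fold and values past 3 or -3 drawn at the edge. The 8 genes lie inside the grey band, between -0.25 and 0.34.

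The enzymes are given in the order in which they act. Cyp51 encodes lanosterol demethylase, a cytochrome P450 and the target whose fungal counterpart is blocked by azole drugs. Its 6.97 FPKM with probucol against 5.30 FPKM untreated is a ratio of 1.31 (95% counting interval 1.09 to 1.59), on an estimated 258 and 197 fragments. This was the highest log2 ratio of the 8, at percentile 83.3 of all genes compared. Cyp51 (chromosome 5, 4081145 to 4104746, minus strand, mm10) shares 166 of the 3931 exon bases of its RefSeq-matched transcript with Akap9 on the opposite strand. Akap9 was at 6.53 and 4.56 FPKM, and since the labels name no stranded counting, reads from the shared bases cannot be assigned.

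Nsdhl encodes the dehydrogenase that acts in the removal of the methyl groups at carbon 4 of the sterol. Its gene lies on chromosome X, 72918557 to 72958514. It was at 8.63 FPKM with probucol against 10.5 FPKM without it, on about 168 and 205 fragments. The ratio of 0.823 had an interval from 0.668 to 1.01, so a ratio of 1 was not left out. Nsdhl had the lowest log2 ratio of the 8, at percentile 18.4. Cyp51 was at 0.807 of the Nsdhl level with probucol and at 0.506 untreated. As the members at the highest and the lowest ratio, Cyp51 and Nsdhl shift most against each other by construction.

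Sc5d encodes the desaturase that makes 7-dehydrocholesterol, and Dhcr7 the reductase that turns it into cholesterol. Sc5d lies on chromosome 9, 42251595 to 42264256, and Dhcr7 on chromosome 7, 143823145 to 143848410. Sc5d was at 31.2 FPKM with probucol against 28.0 FPKM without it (ratio 1.11, interval 1.03 to 1.20) on about 1423 and 1283 fragments. Dhcr7 was at 10.8 and 12.3 FPKM (ratio 0.879, interval 0.747 to 1.04) on about 281 and 321 fragments. Of this consecutive pair the desaturase was the more abundant, 2.88 times the Dhcr7 level with probucol and 2.27 times untreated. Of the 4 enzymes, 2 were thus higher and 2 lower, and their median log2 ratio was -0.0095.

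Of the 4 control genes, 2 were higher and 2 lower, with log2 ratios from -0.21 to 0.16. Srebf2 spans 82147181 to 82205379 on chromosome 15. Srebf2 was at 36.7 FPKM with probucol against 42.5 FPKM without it (ratio 0.862, interval 0.809 to 0.919) on about 1775 and 2069 fragments. It was the only member whose interval lay wholly below 1, and its log2 ratio of -0.21 was at percentile 22.4 of all genes. Cyp51 and Srebf2, the members with the printed ATCACCNCA match, had log2 ratios of 0.34 and -0.21. Cyp51 was picked by its ratio and the form of the match after the sequences were seen. A link between match and ratio was not tested and cannot be read from these values. The microRNA gene Mir33, which lies in intron 16 of 18 of Srebf2 (chromosome 15, 82198122 to 82198190), was listed at 0 in both libraries; the values of a table of long-RNA fragments do not measure the mature microRNA.

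Scap, on chromosome 9 from 110333288 to 110384950, was at 21.2 FPKM with probucol against 22.4 FPKM without it (ratio 0.946, interval 0.860 to 1.04). The transcription factor exceeded its escort 1.73 times with probucol and 1.90 times untreated. On the opposite strand the gene model 5830462I19Rik shares 785 of the 4227 exon bases of the Scap transcript (18.6%), which leaves the Scap value uncertain.

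Insig1, the INSIG gene that SREBP2 itself induces, lies on chromosome 5 from 28071363 to 28078662 and was at 9.04 FPKM with probucol against 8.96 FPKM without it. The ratio of 1.01 (0.835 to 1.22) was the nearest to 1 of the 8, on about 224 and 223 fragments. Its relative Insig2 was more abundant, at 15.5 and 17.5 FPKM, with Insig1 at 0.583 of the Insig2 level with probucol and 0.513 untreated. The interval of the Insig2 ratio, 0.718 to 1.10, also held 1. Stard4, a soluble protein that carries cholesterol between membranes and another SREBP2 target, was at 9.06 and 7.98 FPKM (ratio 1.14, interval 0.989 to 1.31) on about 441 and 390 fragments.

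**Figure D3:**
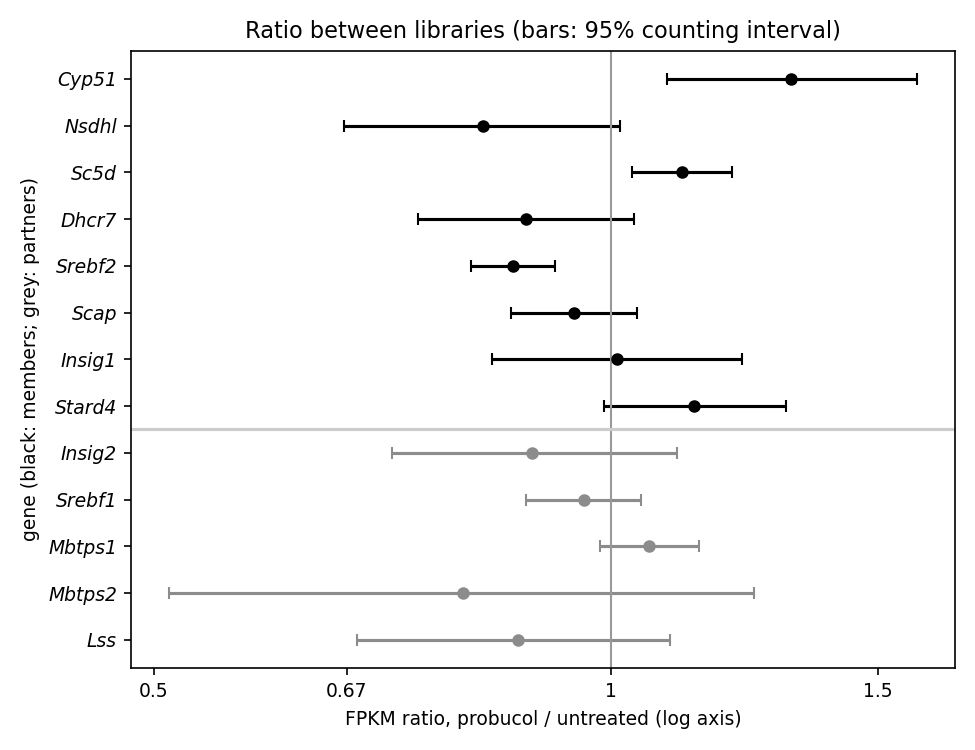
FPKM ratio of probucol over untreated (log axis) with 95% counting intervals, for the 8 members (black) and 5 direct partners (grey). Intervals of Cyp51 and Sc5d lie above 1 and that of Srebf2 below 1, while those of the other members hold 1.

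Counting intervals left out a ratio of 1 for 3 of the 8 members, against 53.2% of the 10271 genes that passed the filter and had a transcript length. Above 1 were 2 members (29.0% of all genes) and below 1 was 1 member (24.2%). Shares of this size among all genes show that a counting interval off 1 is common between these libraries, and the share of the members was not above it. The number of such members depends on the transcript length behind the fragment numbers: it was 1 with the median of all annotated transcripts, short incomplete ones included, and 0 with the shortest.

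Of the other enzymes and the scaffold protein of the late steps, 7 of 8 passed the filter, 2 higher and 5 lower, with none past 1.5-fold and a median log2 ratio of -0.07. The highest was Tm7sf2, a sterol reductase, at 4.42 FPKM with probucol against 3.69 FPKM without it. The lowest was Hsd17b7, a ketosteroid reductase of the demethylation complex, at 1.15 and 1.44 FPKM. Lss, the cyclase that makes lanosterol, was at 3.03 and 3.49 FPKM (ratio 0.868, interval 0.680 to 1.09).

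Of 23 other genes of SREBP processing, INSIG turnover and export from the endoplasmic reticulum, 22 passed the filter, 13 higher and 9 lower. None was past 1.5-fold on FPKM + 1, and the median log2 ratio of the list was 0.05. The site-1 protease gene Mbtps1 was at 35.9 FPKM with probucol against 33.8 FPKM without it (ratio 1.06, interval 0.984 to 1.14). The site-2 protease gene Mbtps2 was scarce, at 0.852 and 1.07 FPKM, with Mbtps1 at 42.1 and 31.7 times its level. Srebf1, which encodes the SREBP1 proteins, was at 25.0 and 26.1 FPKM, so Srebf2 was 1.46 and 1.63 times as abundant. The highest ratio was that of Sec24a, a cargo-binding subunit of the COPII coat, at 5.77 and 3.80 FPKM with a log2 ratio of 0.49. Its ratio of FPKM itself was 1.52 (interval 1.26 to 1.84).

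Of 13 other sterol carriers and binders, 12 passed the filter, 6 higher and 6 lower, with a median of 0.0053. Gramd1a, which moves cholesterol from the plasma membrane to the endoplasmic reticulum, was at 408 FPKM with probucol against 288 FPKM without it (ratio 1.41, interval 1.37 to 1.46). Its log2 ratio of 0.50 was the highest of that list, against 0.16 for Stard4. Stard6, a relative of Stard4, was the only one past 2-fold, at 0.586 FPKM (about 6 fragments) and 2.75 FPKM (about 27).

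The reference lists around the 8 genes were mixed as well. Of 10 upstream enzymes from mevalonate synthesis to squalene epoxide, 4 were higher and 6 lower, with a median of -0.07. The list's ends lay outside the range of the 8: Sqle, at 4.58 and 2.59 FPKM, had a log2 ratio of 0.63, Pmvk, at 9.47 and 21.4 FPKM, one of -1.10, and Mvk, at 2.56 and 7.58 FPKM, one of -1.27. Of 5 sterol uptake genes, 3 passed the filter, from Mylip at 18.8 and 23.9 FPKM to Tmem97 at 6.68 and 5.77 FPKM.

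Of 11 fatty acid synthesis genes, 8 passed the filter, 4 higher and 4 lower, with a median of 0.01. They ran from Gpam, at 1.66 FPKM with probucol against 2.98 FPKM without it, to Acaca, at 1.75 and 1.36 FPKM. The 3 genes below the filter, named after their values were seen, differed in direction. Fads2, a fatty acid desaturase, was at 0.848 and 0.154 FPKM (about 25 and 5 fragments; ratio 5.52, interval 1.89 to 16.8). Me1 was listed at 0 with probucol and at 0.262 FPKM untreated, and Scd1 stood at 0.606 and 0.712 FPKM.

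**Figure D4:**
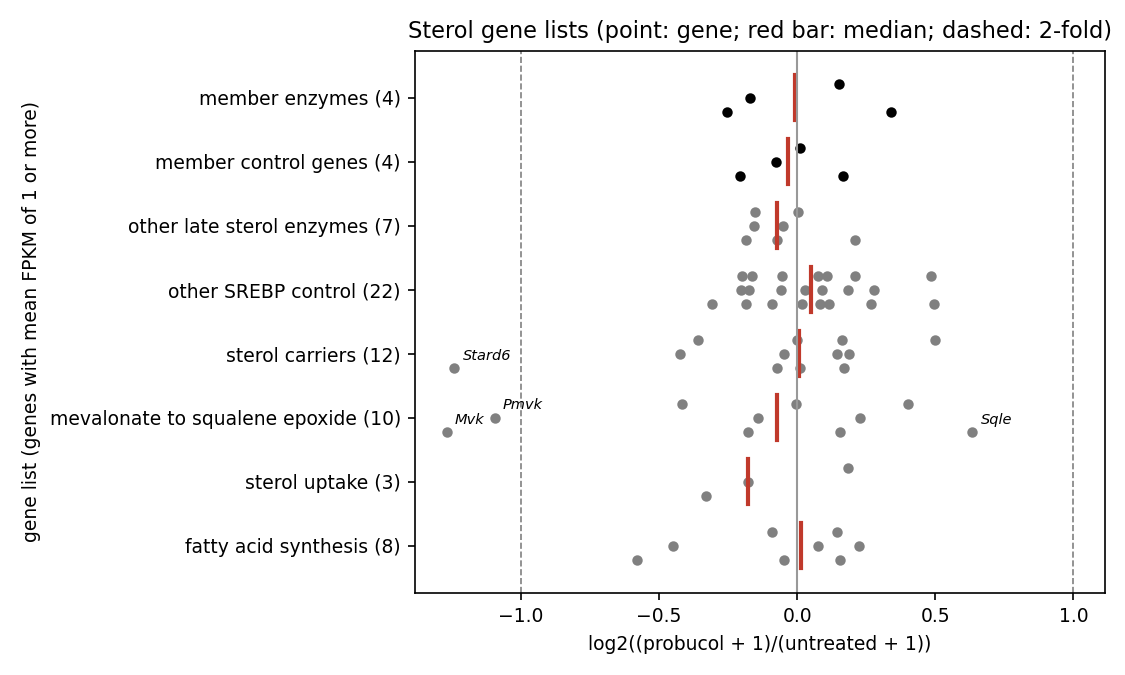
Log2 ratio on FPKM + 1 of each gene with a mean of 1 FPKM or more, by list (number of genes in brackets), with the list median as a red bar and dashed lines at 2-fold. The 8 members (black) stay between -0.25 and 0.34, and only Stard6, Mvk and Pmvk lie past 2-fold, all lower with probucol.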

How the data were processed

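The authors deposited 1 FPKM value per gene symbol and library. The submitters' processing notes name TopHat2 2.1.1, Bowtie2, Cuffdiff 2.2.1 and the build mm10, with no role or order. No source used here gives the annotation, read filters or scaling between libraries. Per the labels' protocols, cDNA was made with SMART-Seq HT and libraries with a Nextera kit. No molecular identifiers or stranded counting are named. The intervals treat each fragment as independent, so they cover no more than counting error and can be too narrow where fragments come from copies of the same cDNA.

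No count model was fitted to FPKM. Ratios were taken as log2((probucol + 1)/(untreated + 1)), which understates changes of low genes; ratios printed without log2 are of FPKM itself. Genes with a mean of 1 FPKM or more were compared. The worth of 1 fragment was fitted from low FPKM values of genes with 1 transcript of 800 to 10000 bp: 0.101 FPKM at 1 kb in the probucol library and 0.100 in the untreated one, after subtracting 210 bp. Of these values 79.7% and 79.5% fell no more than 0.1 from whole fragments, against 20% for evenly spread values with no fit. Step and subtracted length were fitted to these same values, so the shares describe the fit and do not test it. Fragments per gene then came from GENCODE M21 (GRCm38, the assembly of mm10), using the median length of transcripts with a RefSeq match (1 such transcript for each of the 8 members) or else of all transcripts. That restriction was chosen after the data were seen, because the median over all transcripts was far shorter than the full-length one. Ratio intervals are exact (Clopper-Pearson) binomial at 95%, computed with scipy 1.17.1, and the script was tested on simulated data. The rule named the 8 members, direct partners, the ends of each list and every list gene past 2-fold; some of these genes are not reported here. The members and lists were chosen with earlier results of these data known.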

Additional observations from a re-analysis of the deposited data

How the results depend on the processing

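The 8 genes stayed inside 1.5-fold and 2-fold under each setting run: a pseudocount of 0.1 or 5, libraries rescaled to equal FPKM sums, centring on the median gene, no filter, and a mean of 5 FPKM or more. The shares of all genes past 1.5-fold were lowest with a pseudocount of 5, at 1.93% higher and 1.88% lower. They were highest with a pseudocount of 0.1, at 8.7% higher and 7.5% lower. With such shares, none of 8 under each setting is again not a trait particular to these genes. Every log2 ratio stayed within its counting interval, and only Insig1 changed sign, from 0.011 to -0.0060 with centring. The median of the 8 ran from -0.05 with centring to -0.011 with rescaling, and the mean in its place was -0.0055. The count of members with an interval off 1, which is 3, was the same with the longest transcript, 1 with the median of all annotated transcripts (an alternative chosen after seeing the data) and 0 with the shortest; shorter transcripts give fewer estimated fragments. At a depth of about 7.86 fragments per FPKM for a transcript of 1 kb with probucol, and 7.90 untreated, differences such as those of Nsdhl and Dhcr7 were not resolved. No paired analysis was possible because each group has 1 library.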
